A study of Mus musculus with 12 samples.

Results

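Mast cells and basophils are granulocytes that carry histamine and proteases in cytoplasmic granules and release them when IgE on their surface is crosslinked by antigen. A set of 10 genes that mark these cells was followed in Ba/F3 cells that carried *RPL10 WT* or *RPL10 R98S*: the transcription factors *Gata2*, *Gata1* and *Mitf*, the IgE receptor chains *Fcer1a*, *Ms4a2* and *Fcer1g*, the stem cell factor receptor *Kit*, and the granule genes *Cpa3*, *Hdc* and *Tpsab1*. The genes were chosen by name, 10 of the 41255 genes listed in the mRNA table, and 6 of them were also listed among the 10080 genes of the ribosome footprint table. Ba/F3 is an interleukin-3-dependent mouse line that is described as lymphoid. The cells were transduced with a retrovirus encoding the human *RPL10* cDNA, either WT or R98S, and an shRNA reduced the cells' own *Rpl10* in both genotypes. Each culture grew from a single cell, so a replicate here is a clone: R98S clones 11, 13 and 35 and WT clones 28, 29 and 36, the order in which values are given. Every clone received 100 μg/ml cycloheximide for 5 min and gave 1 mRNA library and 1 library of ribosome-protected fragments (RPF), which makes 12 libraries. Values are normalized counts, that is, read counts divided by the DESeq2 size factor of the library.

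The 6 mRNA libraries held 6617457 to 23136595 reads, and the lowest total, that of WT clone 28, was followed by 20576796. The RPF libraries held 3477723 to 10883086 reads. The mRNA of *Rpl10*, to which reads of the knocked-down gene and of the human transgene can both contribute, was at 1449 to 4501 normalized counts over the 6 clones. The lymphoid label was compared with 13 B lineage markers. *Cd79a*, *Cd79b* and *Ptprc* were expressed, of which *Ptprc* is not specific to the B lineage. The other 10 had a mean under 10 normalized counts. *Pax5*, *Il7r* and *Rag1* were at 0 reads in all 6 libraries. The remaining 7, *Ebf1* among them, had no more than 3 reads in any library. The libraries are bulk samples, so more cells of a type and more RNA per cell cannot be told apart in any value below.

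In mast cell precursors GATA2 works with GATA1 or MITF at the regulatory DNA of the IgE receptor genes and of granule genes, where GATA factors bind the letters GATA with a few fixed neighbours. IgE binds FcεRIα (*Fcer1a*), the β chain (*Ms4a2*) amplifies the signal, and the γ chain (*Fcer1g*), which other Fc receptors also use, passes it on to the kinase SYK. Mature mast cells need KIT signalling, while basophils largely lose KIT. *Cpa3* encodes carboxypeptidase A3, *Hdc* the enzyme that makes histamine, and *Tpsab1* a tryptase.

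The stretches just upstream of the start are shown for the granule genes *Cpa3* and *Hdc* and for 2 receptor genes, *Ms4a2* and *Fcer1a*, because the mRNA of these genes covered the range from the clearest difference between genotypes to near absence. Each is the 250 bases before the RefSeq start (build GRCm38.p6), written 5′ to 3′ along the gene, and the capitals mark GATA letters, searched on both strands as GATAA or GATAG with an A or a T before it. All of the stretches shown hold a match, and the genes without a match, named below, are not shown. *Cpa3* is at chr3:20242182-20242431 and *Ms4a2* at chr19:11623720-11623969, both on the minus strand and directly upstream of the gene. *Fcer1a* is at chr1:173227230-173227479 on the minus strand, outside any annotated gene. *Hdc*, at chr2:126618679-126618928 on the minus strand, lies inside the GENCODE gene, in an intron of a longer transcript.
Cpa3: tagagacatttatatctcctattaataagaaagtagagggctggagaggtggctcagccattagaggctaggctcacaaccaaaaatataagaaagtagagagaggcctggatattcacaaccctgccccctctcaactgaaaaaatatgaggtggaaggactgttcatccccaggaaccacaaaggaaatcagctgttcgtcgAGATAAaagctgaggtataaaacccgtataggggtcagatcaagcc
Hdc: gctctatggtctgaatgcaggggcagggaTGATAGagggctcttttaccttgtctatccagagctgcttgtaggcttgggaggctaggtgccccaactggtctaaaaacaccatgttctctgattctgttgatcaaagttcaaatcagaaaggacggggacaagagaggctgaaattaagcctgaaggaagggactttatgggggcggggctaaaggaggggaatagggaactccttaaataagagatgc
Ms4a2: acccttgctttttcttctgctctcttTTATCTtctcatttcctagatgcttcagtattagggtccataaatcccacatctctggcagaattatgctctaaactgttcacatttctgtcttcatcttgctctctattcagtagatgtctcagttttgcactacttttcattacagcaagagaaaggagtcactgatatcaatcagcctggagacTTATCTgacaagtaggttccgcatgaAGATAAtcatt
Fcer1a: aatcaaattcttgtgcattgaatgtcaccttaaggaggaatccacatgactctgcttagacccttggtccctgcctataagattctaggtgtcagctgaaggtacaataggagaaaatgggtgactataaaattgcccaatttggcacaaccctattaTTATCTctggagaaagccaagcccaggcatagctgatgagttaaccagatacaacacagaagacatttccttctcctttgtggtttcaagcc

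The letters began 46 bases upstream of the start in *Cpa3*, 221 in *Hdc*, 92 in *Fcer1a*, and 224, 37 and 11 in *Ms4a2*, the one of these genes with 3 matches. Among the 9 of 10 genes with an entry in the RefSeq promoter table, 5 held a match, the fifth being *Mitf* in 2 of its 3 promoters, and *Gata2*, *Gata1*, *Kit* and *Fcer1g* held none. These genes have 13 stretches in the table, since *Mitf* has 3 and *Gata2* and *Kit* have 2 each, and 6 of the 13 stretches held a match, against 26.5% of all 32851 stretches of the same length and position. Letters for an E-box of the kind that MITF binds (CACGTG or CATGTG, both strands) were found in 1 of the 13 stretches, that of *Fcer1a*, against 17.6% of all stretches. These matches describe the sequence and do not show binding.

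Ba/F3 cells expressed some of the 10 genes strongly and others hardly at all. Per kilobase of exon, *Fcer1g* (mean 3604 normalized counts of mRNA per kb over the 6 clones) and *Gata2* (3395) stood at the top, at the 99.1st and 99.0th percentile of the 19978 genes above 0. *Gata1* followed at 718, and *Cpa3* and *Mitf* at 212 and 190. *Hdc* (24.4), *Ms4a2* (20.2) and *Tpsab1* (6.66) were far lower, and *Fcer1a* and *Kit* came last. Neighbours in this order overlapped in their range over clones except for 2 steps, from *Gata2* (lowest clone 2065 per kb) down to *Gata1* (highest clone 1201 per kb) and from *Mitf* (lowest clone 130 per kb) down to *Hdc* (highest clone 58.3 per kb). When the length of the longest transcript was used in place of all exons, *Gata2* moved above *Fcer1g* and *Mitf* above *Cpa3*. Footprints per kilobase of coding sequence gave *Gata2* 4924 and *Fcer1g* 4724, at the 98.6th and 98.5th percentile of 9743 genes, and *Hdc* 38.8, at the 19.3rd.

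**Figure D1:**
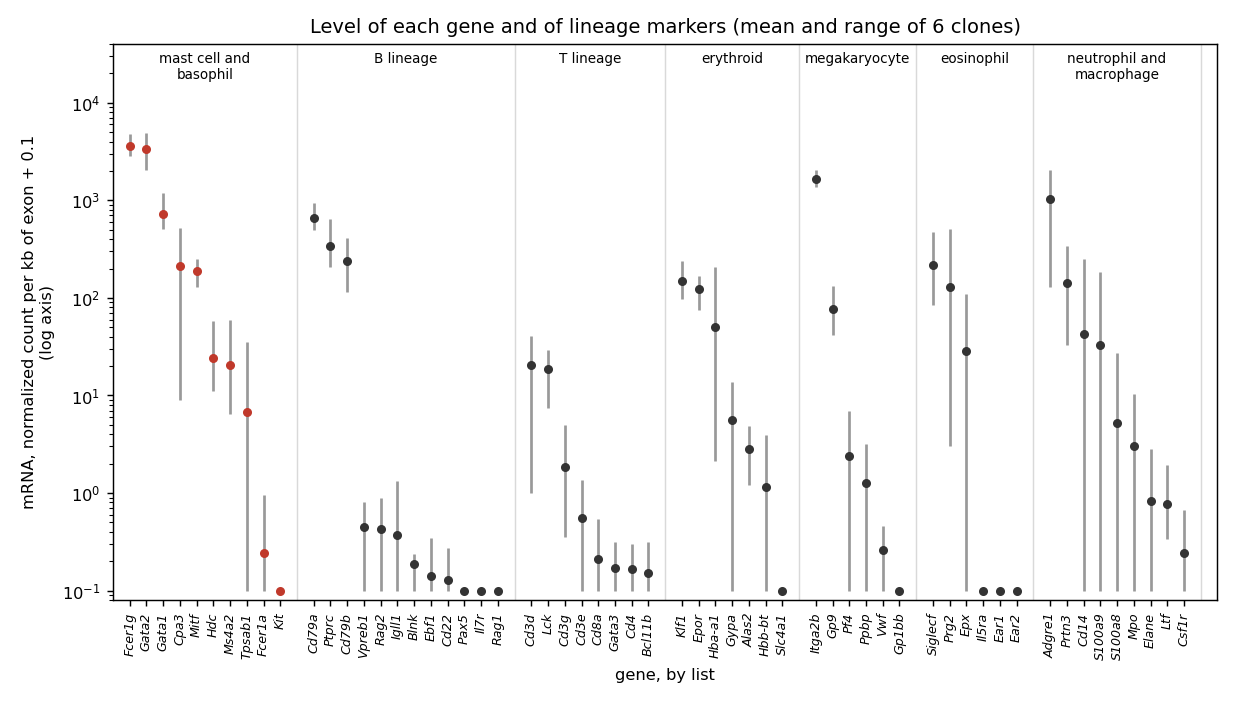
Mean mRNA level of each gene (points) and its range over the 6 clones (grey lines), in normalized counts per kb of exon plus 0.1 on a log axis, for the 10 mast cell and basophil genes (red) and for markers of 6 other lineages (black). *Fcer1g* and *Gata2* are the highest points of the plot, at 3604 and 3395 per kb, whereas *Kit* lies at 0, as do 3 B lineage markers.

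Among the transcription factors, *Gata2* mRNA was lower in R98S clones. *Gata2* (chr6:88193891-88207032, plus strand, mm10 as are all gene positions here) had 15087, 15300 and 11145 normalized counts of mRNA in R98S, against 26448, 20183 and 21802 in WT. The genotypes did not overlap, and the lowest WT clone stood 1.32-fold above the highest R98S clone. The log2 fold change, R98S against WT, was −0.73 ± 0.20 (SE, limma, adjusted p = 0.0805, n = 3 against 3). The call, though not the size of the difference, depended on single clones: without any 1 clone the log2 fold change lay between −0.81 and −0.58, and the call was lost without each clone other than WT clone 29 (adjusted p from 0.101 to 0.198). It was also lost with the median of each chromosome removed from each library (log2 fold change −0.67, adjusted p = 0.148) and without the filter on low values (adjusted p = 0.139), whereas DESeq2 on recovered reads (adjusted p = 0.0104) and library weights (log2 fold change −0.59, adjusted p = 0.0214) gave smaller p-values.

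*Gata2* footprints did not separate the genotypes, with 5870, 8111 and 4783 in R98S and 8859, 6638 and 8281 in WT. Their log2 fold change was −0.37 ± 0.23 (limma, adjusted p = 0.402), with a 95% interval from −0.87 to 0.14 that includes the mRNA value. Translation efficiency (TE) is the ratio of footprints to mRNA in the same clone, here of 2 tables normalized separately and so without an absolute scale. For *Gata2* it was 0.389, 0.530 and 0.429 in R98S clones and 0.335, 0.329 and 0.380 in WT clones. The nearest clones were R98S clone 11 and WT clone 36, and the log2 difference of 0.36 ± 0.19 did not pass (limma, adjusted p = 0.653).

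*Gata1* and *Mitf* varied more between clones than between genotypes. *Gata1* (chrX:7959260-7978071, minus strand), which partners with or replaces GATA2 in several blood lineages, had 1618, 1242 and 1922 normalized counts of mRNA in R98S and 1257, 2928 and 1541 in WT. WT clone 29 was highest in mRNA and also in footprints, which were 898, 753 and 1194 in R98S and 994, 1693 and 916 in WT. Neither table passed, with log2 fold changes of −0.18 ± 0.30 for mRNA (limma, adjusted p = 0.804) and −0.31 ± 0.26 for RPF (limma, adjusted p = 0.535), and without WT clone 29 the mRNA difference was 0.17 in the other direction. *Mitf* (chr6:97807052-98021349, plus strand) had 959, 1568 and 808 in R98S and 862, 1423 and 1438 in WT, and its footprints were 350, 437 and 225 against 416, 320 and 341. R98S clone 35 was lowest and R98S clone 13 highest for *Mitf* in both tables. The mRNA log2 fold change of *Mitf* was −0.18 ± 0.29 (limma, adjusted p = 0.798), with a 95% interval from −0.82 to 0.47.

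The IgE receptor was present at the mRNA level as its γ chain, with little of the β chain and nearly none of the α chain. *Fcer1g* (chr1:171229572-171234365, minus strand) had 4153, 2485 and 3379 normalized counts of mRNA in R98S and 3145, 2734 and 3004 in WT, and 2009, 1307 and 1580 footprints against 1571, 1333 and 1612. In both tables R98S clone 11 was highest, R98S clone 13 lowest, and the WT clones lay between them. Log2 fold changes were 0.14 ± 0.20 for mRNA (limma, adjusted p = 0.768; 95% interval from −0.31 to 0.60) and 0.10 ± 0.20 for RPF (limma, adjusted p = 0.814; 95% interval from −0.33 to 0.53).

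*Ms4a2* (chr19:11615523-11623719, minus strand) had 33.3, 18.0 and 168 normalized counts in R98S and 56.4, 32.2 and 32.9 in WT, from 21 to 196 reads a library. R98S clone 35 stood far above the other 5 clones, which spanned 18.0 to 56.4. The log2 fold change was 0.26 ± 0.70 (limma, adjusted p = 0.893), and without R98S clone 35 it was −0.65. *Fcer1a* (chr1:173221284-173227214, minus strand), the chain that binds IgE, had 1 read among the 115347166 of the 6 mRNA libraries, in R98S clone 35. *Kit* (chr5:75574916-75656722, plus strand) had 0 reads in all 6 libraries, which allows up to 3 of the same total. *Ms4a2*, *Fcer1a* and *Kit* were not listed in the footprint table, in which each listed gene had a read in every library.

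The granule gene *Cpa3* showed the clearest difference of the set, in mRNA and in footprints. *Cpa3* (chr3:20215620-20242181, minus strand) had 644, 253 and 787 normalized counts of mRNA in R98S, against 13.4, 174 and 54.9 in WT. The R98S mean of 561 was 6.95 times the WT mean of 80.8, but the nearest clones, R98S clone 13 and WT clone 29, were 1.45-fold apart. The value of WT clone 28 rested on 5 reads, with an exact 95% Poisson interval of 1.62 to 11.7 reads that covers counting error alone. The log2 fold change was 3.28 ± 0.78 (limma, adjusted p = 0.0506). It ranged from 2.35 without WT clone 28 to 4.15 without WT clone 29, and the call was lost without R98S clone 11 (adjusted p = 0.161), R98S clone 35 (adjusted p = 0.138) or WT clone 36 (adjusted p = 0.141).

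*Cpa3* footprints were 330, 127 and 442 in R98S and 36.3, 79.1 and 40.9 in WT, again without overlap and with the same clones nearest to each other, 1.61-fold apart. The RPF log2 fold change of 2.41 ± 0.44 passed (limma, adjusted p = 0.0154), and it passed without any 1 clone, with log2 fold changes from 2.04 to 2.94 and adjusted p from 0.00586 to 0.0687. Its TE was 0.512, 0.503 and 0.561 in R98S and 2.70, 0.455 and 0.745 in WT, where 2.70 belongs to WT clone 28 with its 5 mRNA reads. The log2 TE difference was −0.87 ± 0.50 (limma, adjusted p = 0.670), and without WT clone 28 it was −0.16.

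*Hdc* (chr2:126593667-126619299, minus strand) had 125, 141 and 372 normalized counts of mRNA in R98S and 69.8, 147 and 79.1 in WT, and 59.0, 58.7 and 175 footprints against 57.3, 68.7 and 43.5. R98S clone 35 was highest in both tables, and among WT clones it was clone 29. The log2 fold changes, 1.00 ± 0.45 for mRNA (limma, adjusted p = 0.281) and 0.60 ± 0.41 for RPF (limma, adjusted p = 0.443), did not pass, with a 95% interval for mRNA from −0.01 to 2.00. *Tpsab1* (chr17:25343245-25345562, minus strand) had 3.18, 0 and 73.9 in R98S and 0, 5.77 and 0.784 in WT. Its 98 reads came mostly from R98S clone 35, with 86, and that clone alone carried it over the filter on low values. Another mast cell tryptase, *Tpsb2*, a close copy of it, was at 0 in all 6 libraries, and reads of such copies may be split by the alignment. *Tpsab1* did not pass (log2 fold change 1.56 ± 1.46, limma, adjusted p = 0.629) and was not listed for footprints.

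**Figure D2:**
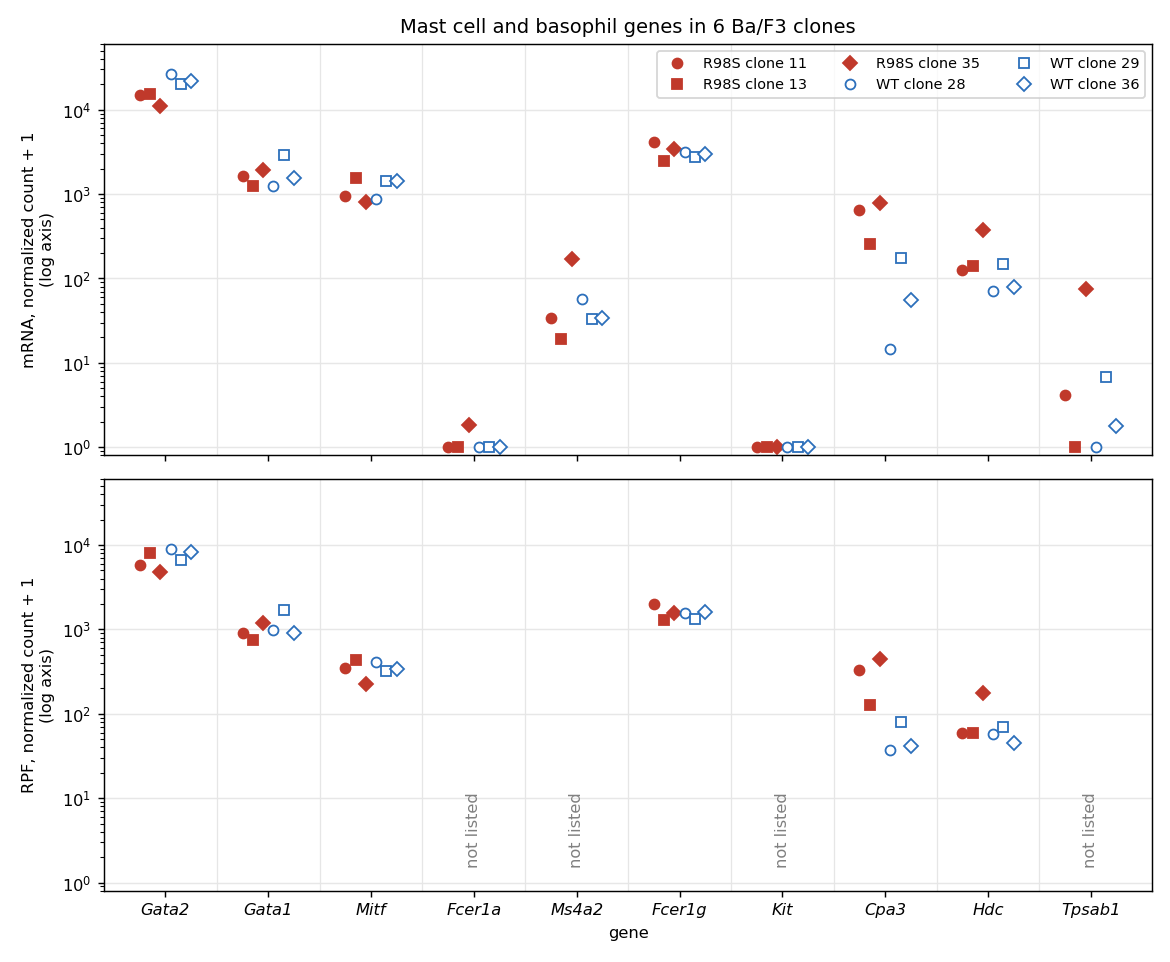
Normalized counts plus 1 (log axis) of each gene in each clone, for mRNA (top) and footprints (bottom), with R98S clones filled in red and WT clones open in blue; a point at 1 is a count of 0. The *Cpa3* points of the genotypes do not overlap in either panel, and R98S clone 35 (filled diamond) is highest for *Ms4a2*, *Cpa3*, *Hdc* and *Tpsab1*.

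Of the 10 genes, 8 passed the filter of a mean of 10 normalized counts and were tested for mRNA, and 2 of these were called, *Cpa3* higher and *Gata2* lower in R98S. Of all 11344 genes tested, 6.94% were called. In the footprint table, where 7.76% of 9580 tested genes were called, *Cpa3* was called and the other 5 listed genes were not. For TE, none of the 6 genes tested was called (limma, adjusted p at or above 0.653, and none at an unadjusted p under 0.05), with 0.0221% of 9043 genes called; the DESeq2 interaction model on recovered reads also called 0 of the 6. Genotypes did not overlap for *Gata2* and *Cpa3* in mRNA, as for 23.5% of tested genes, and for *Cpa3* in footprints, as for 25.3%. With counts this small, the shares are not a result about the set.

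**Figure D3:**
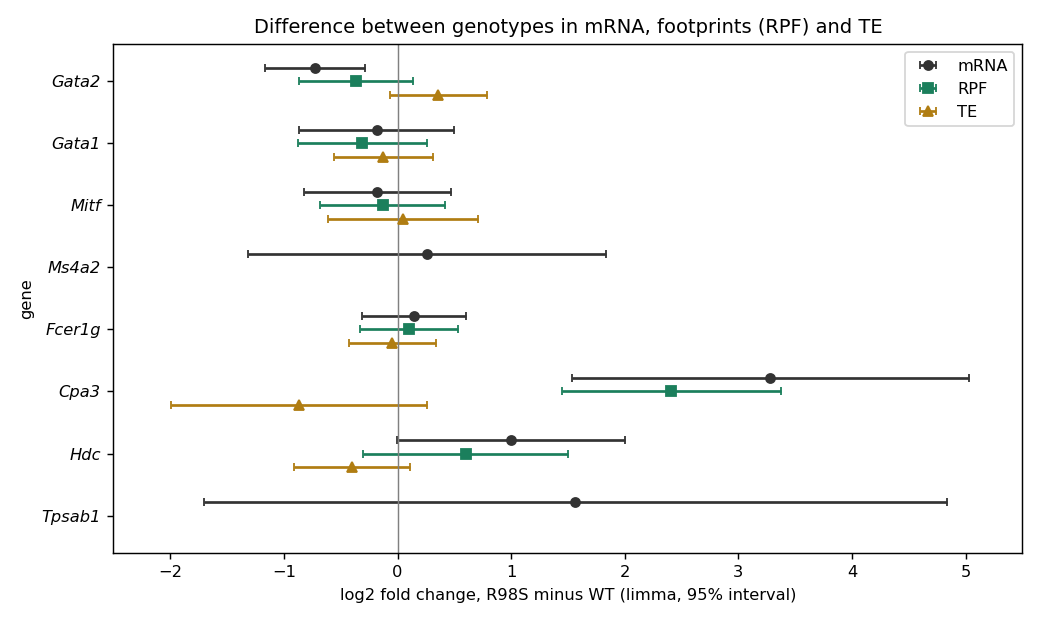
Log2 fold change of R98S against WT with its 95% interval (limma) for mRNA, footprints (RPF) and TE of the 8 genes tested; *Ms4a2* and *Tpsab1* have mRNA values alone. The intervals of *Cpa3* lie above 0 for mRNA (1.53 to 5.03) and footprints (1.44 to 3.38), that of *Gata2* lies below 0 for mRNA (−1.17 to −0.28), and the other intervals include 0.

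The differences between clones of 1 genotype were large for the granule genes and for *Ms4a2*. The within-genotype SD of log2 mRNA was 1.42 for *Cpa3*, 1.20 for *Ms4a2* and 0.73 for *Hdc*, at the 98.6th, 97.9th and 92.5th percentile of tested genes, whose median SD was 0.29. It was 0.50 for *Gata1* and 0.46 for *Mitf*. For *Fcer1g* and *Gata2* it was 0.27 and 0.23, below that median. Footprints gave 0.78 for *Cpa3* and 0.67 for *Hdc*, at the 96.5th and 94.4th percentile. These percentiles were not matched for level, and counting error adds to the SD of genes with few reads. In mRNA, WT clone 28 had 5 reads of *Cpa3*, 21 of *Ms4a2* and 26 of *Hdc*.

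The highest and the lowest clone of a gene were mostly the same in mRNA and footprints, while the full order of clones was not compared. The clone with the most mRNA also had the most footprints for 6 of 6 genes, and the clone with the least mRNA had the fewest footprints for 5 of 6, *Hdc* being the exception, against 39.9% and 40.5% of 9043 genes. R98S clone 35 was the highest clone for *Ms4a2*, *Cpa3* and *Hdc*, and for *Tpsab1*, which was tested through that clone alone. It also held the single *Fcer1a* read. It was at the same time the lowest clone for *Gata2*, in mRNA and in footprints. Libraries of a clone share the culture, so this describes these clones and adds no replicate.

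The length-corrected footprint to mRNA ratio of the 6 genes was ranked among 8788 genes. *Hdc* ranged from the 68.5th to the 89.0th percentile over the 6 clones and *Gata2* from the 61.2nd to the 84.6th. *Fcer1g* kept within the 63.3rd to the 72.9th percentile, the narrowest range, and *Gata1* within the 49.9th to the 65.0th. *Mitf* spanned the 41.9th to the 75.9th. *Cpa3* had the lowest median, the 29.1st, and spanned the 22.0th to the 93.0th, its highest value being that of WT clone 28 with its 5 mRNA reads.

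Around these 10 genes, 86 further genes of mast cells and basophils were counted in 6 lists, of which 58 were tested for mRNA and 53 for footprints. For mRNA, 7 were called higher and 10 lower in R98S, where 3.03% of all tested genes were called higher and 3.91% lower. Some of the 7, *Tph1* among them, passed the filter on low values through R98S clones alone. For footprints, 6 were called higher and 10 lower, where 3.13% and 4.62% of all tested genes were, and 12 genes were called in both tables. The lists were chosen with results of these data known, so these counts are a description. The median log2 fold change of the tested list genes was 0.03 for mRNA and −0.01 for footprints, against 0.01 and 0.01 over all tested genes. Of the 17 mRNA calls, 7 held without any 1 clone, and of the 16 footprint calls, 6 did. The others were lost without R98S clone 11, some also without other clones, with their highest adjusted p between 0.111 and 0.300 for mRNA and between 0.110 and 0.315 for footprints (limma); *Tph1*, not tested without R98S clone 35, is the exception.

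Of 13 tested transcription factors, *Lyl1* and *Lmo2*, which act with GATA proteins, were called lower in R98S in both tables and none was called higher. *Lyl1*, a helix-loop-helix factor that binds DNA beside GATA2, had 1769, 1644 and 1104 normalized counts of mRNA in R98S and 4052, 2975 and 3711 in WT (log2 fold change −1.27, limma, adjusted p = 0.0132). *Lmo2*, the adaptor that joins such factors to GATA proteins, had 92.9, 81.9 and 115 in R98S and 207, 264 and 296 in WT (log2 fold change −1.39, limma, adjusted p = 0.0186). *Lyl1* was called without any 1 clone in both tables, and *Lmo2* in the mRNA table. *Tal1*, the better known relative of *Lyl1*, was called lower for footprints (log2 fold change −0.54, limma, adjusted p = 0.0939) but lost the call when any 1 clone was left out, and its mRNA overlapped between genotypes (adjusted p = 0.543). *Zfpm1*, a GATA1 cofactor and the most abundant gene of this list per kb, at 1504, was not called (adjusted p = 0.608).

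In IgE receptor and KIT signalling, the adaptor gene *Lat2* was higher in R98S and the adaptor genes *Lat* and *Lcp2* were lower, while the adaptor genes *Gab2*, *Grb2* and *Dok1* were not called for mRNA. *Lat*, the membrane adaptor that SYK phosphorylates, had 341, 356 and 454 in R98S and 1598, 779 and 1201 in WT (log2 fold change −1.58, limma, adjusted p = 0.0125). *Lat2*, the related adaptor also called NTAL, had 396, 215 and 565 in R98S and 69.8, 99.0 and 37.6 in WT (log2 fold change 2.49, limma, adjusted p = 0.0134). *Lcp2*, which encodes the adaptor SLP-76, had 1004, 1520 and 1439 in R98S and 2554, 2826 and 4087 in WT (log2 fold change −1.25, limma, adjusted p = 0.0186), and its footprints fell by 1.83 on the log2 scale (limma, adjusted p = 0.00297). For each of these 3 genes the genotypes did not overlap in mRNA or footprints, as for 23.5% and 25.3% of all tested genes.

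Of the 18 tested genes of that list, 3 were higher, among them *Lat2* and the kinase *Fyn* (log2 fold change 0.79, limma, adjusted p = 0.0432), and 3 were lower, *Lat*, *Lcp2* and the Ras activator *Rasgrp4* (log2 fold change −1.44, limma, adjusted p = 0.0951). The calls of *Lat*, *Lat2* and *Lcp2* held without any 1 clone in mRNA. *Plcg2*, the phospholipase downstream, was called lower for footprints (limma, adjusted p = 0.0985) but not for mRNA (adjusted p = 0.617), and it kept the call without 1 of the 6 clones. *Btk*, a kinase of the same pathway and the most abundant gene of the list at 1298 per kb, was not called (adjusted p = 0.792). *Lyn* and *Syk*, kinases of IgE receptor signalling, were not called (adjusted p = 0.338 and 0.742).

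Some granule genes beyond *Cpa3*, *Hdc* and *Tpsab1* also differed widely between clones of 1 genotype. *Cma1*, a mast cell chymase named after its values were seen, had 13501, 1943 and 12235 normalized counts of mRNA in R98S and 1324, 4111 and 640 in WT. R98S clones 11 and 35 were high and R98S clone 13 lay below WT clone 29, and the log2 fold change of 2.17 ± 0.79 did not pass (limma, adjusted p = 0.176). *Gzmb*, granzyme B, also chosen after its values were seen, ran from 13.3 in WT clone 36 to 4627 in R98S clone 11, with 2795 in WT clone 28 (adjusted p = 0.355). Of 11 tested genes, 2 were called higher and none lower: *Ndst2*, which sulfates the heparin of mast cell granules (1450, 1159 and 1132 against 755, 793 and 525; log2 fold change 0.86, limma, adjusted p = 0.0582), and *Tph1*, the first enzyme of serotonin synthesis (30.2, 16.4 and 37.8 against 0, 1.65 and 0.784; limma, adjusted p = 0.00967). *Tph1* passed the filter through R98S clones alone and was not tested without R98S clone 35. *Srgn*, the core protein that binds granule proteases, was the most abundant at 5586 per kb and was not called (adjusted p = 0.936).

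Eicosanoid enzymes, which make leukotrienes and prostaglandins, were called lower in R98S for 3 of 4 tested in mRNA and 2 of 4 in footprints, and none was called higher, beside 3.91% and 4.62% of all tested genes called lower. *Ptgs1*, the constitutive cyclooxygenase and the most abundant of them at 1424 per kb, had 2640, 4106 and 3814 in R98S and 9136, 6014 and 7485 in WT (log2 fold change −1.10, limma, adjusted p = 0.0269). *Pla2g4a*, the phospholipase that releases arachidonic acid, fell by 0.82 in mRNA (limma, adjusted p = 0.0661) and by 1.16 in footprints (limma, adjusted p = 0.0273) on the log2 scale. *Alox5ap*, the partner of 5-lipoxygenase, fell by 1.00 in mRNA and 1.06 in footprints on the log2 scale (limma, adjusted p = 0.0588 and 0.0267). *Pla2g4a* kept its footprint call without any 1 clone, whereas the mRNA calls of *Ptgs1*, *Alox5ap* and *Pla2g4a* each depended on at least 1 clone.

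Among 9 tested surface receptors, 2 were higher and 2 lower in mRNA. *Csf2rb2*, the β chain of the mouse interleukin-3 receptor, was the most abundant per kb of exon, at 7807. With the length of the longest transcript, its close copy *Csf2rb* stood above it, at 9525 against 7807. *Csf2rb2* was higher in R98S in mRNA (log2 fold change 0.95, limma, adjusted p = 0.0424) and footprints (1.08, limma, adjusted p = 0.00886). *Csf2rb* was called for footprints (1.02, limma, adjusted p = 0.0392), and reads of the pair may be exchanged. *Fcgr3*, an activating IgG receptor that pairs with the γ chain, had 3702, 3183 and 3796 in R98S and 1493, 2297 and 1979 in WT (log2 fold change 0.91, limma, adjusted p = 0.0343), with *Fcer1g* itself not called. *Fcgr2b*, the inhibitory IgG receptor, was lower in mRNA (−1.05, limma, adjusted p = 0.0734) but not called for footprints (adjusted p = 0.282). The integrin chain *Itgb7* fell by 1.44 in mRNA and 1.64 in footprints on the log2 scale (limma, adjusted p = 0.0137 and 0.0130), and *Itga2* was higher in footprints (2.96, limma, adjusted p = 0.0501). Mean *Itga2* footprints were 75.3 in R98S and 14.9 in WT, and 2 of the 6 fits without 1 clone kept the call. Of the 3 tested cytokines none was called by limma, with *Il6*, the most abundant at 409 per kb, at 917, 618 and 2117 in R98S and 569, 1136 and 596 in WT. R98S clone 35 was again the highest clone for *Il6*.

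**Figure D4:**
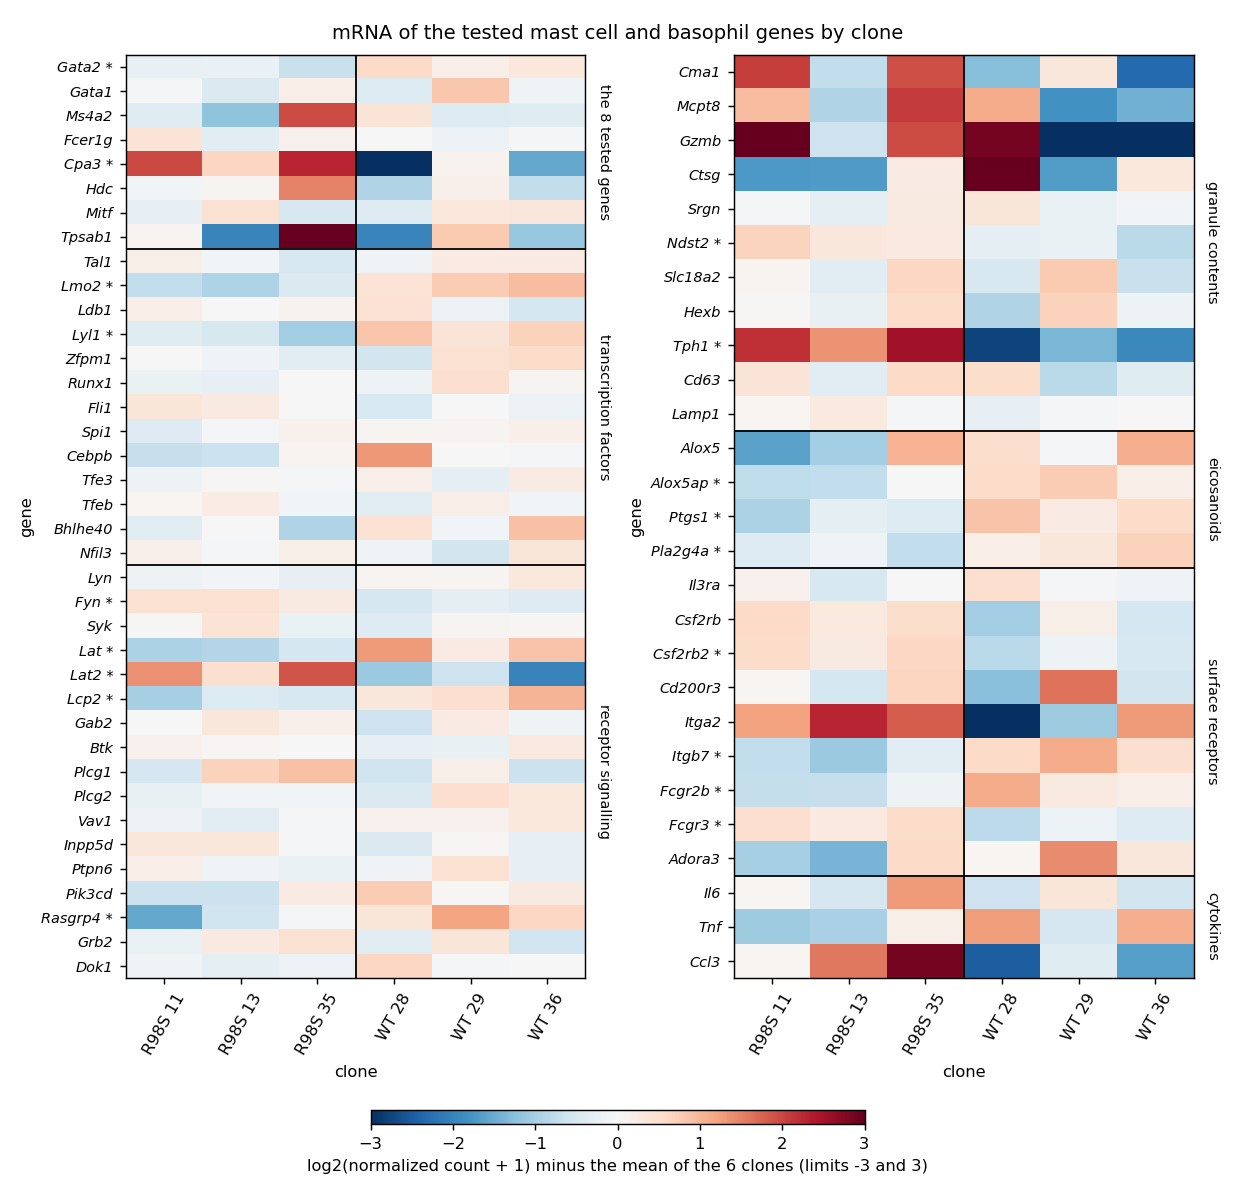
Deviation of log2(normalized count + 1) of mRNA in each clone from the mean of the 6 clones, red above and blue below, for the 8 tested genes of the set (top left) and tested genes of the 6 lists; an asterisk marks an mRNA call, and colors stop at -3 and 3. *Cpa3*, *Lat2* and *Tph1* are redder in the 3 R98S clones, *Lyl1*, *Lmo2* and *Lat* bluer, and granule genes such as *Cma1* and *Gzmb* change color between clones of 1 genotype.

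Markers of other lineages also differed between clones. Of 9 neutrophil and macrophage markers, 4 had a mean of at least 10, and their list summed to 478 to 1181 normalized counts of mRNA in R98S and 5954 to 6935 in WT. Most of that sum was 1 gene, *Adgre1* (mean 754 in R98S and 5956 in WT). *Adgre1* and *Prtn3* of this list were lower in R98S (log2 fold changes −3.06 and −2.07, limma, adjusted p = 0.000716 and 0.0241), and no gene of it was at 0 in all libraries. *Cd14* was at 430 in WT clone 28 and at no more than 4.91 elsewhere, in the library where *Cpa3* was lowest. Of 6 eosinophil markers, 3 were at 0 (*Il5ra*, *Ear1* and *Ear2*), the list summed to 300 to 1085 in R98S and 742 to 1327 in WT, and *Siglecf* was lower in R98S (−1.31, limma, adjusted p = 0.0645). *Prg2*, a granule protein shared by eosinophils and some basophils, had 54.0, 31.9 and 423 in R98S and 113, 2.47 and 26.6 in WT, and *Epx* was at 300 in R98S clone 35 and 145 in WT clone 28.

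Of 8 T lineage markers, 2 had a mean of at least 10, and the list summed to 138 to 146 in R98S and 50.9 to 69.8 in WT. *Cd3d* was called higher for footprints (log2 fold change 2.33, limma, adjusted p = 0.0143) and *Lck* was not. Mean *Cd3d* footprints were 55.6 in R98S and 9.47 in WT, so *Cd3d* passed the filter on low values through R98S clones. Megakaryocyte markers, 2 of 6 with a mean of at least 10 and *Gp1bb* at 0, summed to 7421 to 8531 in R98S and 8686 to 11340 in WT, nearly all of it *Itga2b* (1671 per kb), and *Gp9* was called lower for footprints (−1.01, limma, adjusted p = 0.0735). Erythroid markers, 4 of 7 with a mean of at least 10 and *Slc4a1* at 0, overlapped between genotypes (461 to 676 against 345 to 669). *Klf1* and *Epor* were not called, and *Hba-a1* was lower in R98S (−3.93, limma, adjusted p = 0.0147). Mean *Hba-a1* mRNA was 2.99 in R98S and 78.3 in WT, so *Hba-a1* passed the filter through WT clones. The B lineage list summed to 5474 to 6668 and 6029 to 12914. Most of it was *Ptprc* (mean 4393 in R98S and 8109 in WT), which is not specific to the B lineage. *Ptprc* was lower in footprints (−1.19, limma, adjusted p = 0.0157). *Cd79a* and *Cd79b* went the other way in mRNA (log2 fold changes 0.42 and 1.00), and neither was called. The part of these markers in the differences of *Gata2*, *Cpa3* and the genes around them was not tested.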

How the data were processed

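Ribosome footprints and mRNA were sequenced from the same 6 clones. For both, the authors deposited 1 table of signal values, gene counts divided by DESeq2 size factors of that table alone. Upstream of these tables, the authors removed adapters, then rRNA and tRNA with Bowtie2, and aligned to mm10 with Tophat 2.0.11. They counted footprints over coding sequence away from its ends, and merged 3 technical replicates per footprint library. The counting tool, its annotation and whether strand was used are not given in the sources used here. All values above 0 (100%) were whole multiples of 1 read (tolerance 0.01), so reads were recovered for depth and for tests on counts. Intervals on reads cover counting error alone.

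For genes with a mean of at least 10, the values plus 1 were put on a log2 scale and the genotypes compared in limma 3.58.1 under R 4.3.3, allowing a variance trend. The added 1 shrinks the fold changes of genes with low values. TE was compared for genes with at least 10 in all 12 libraries, paired by the clone number in both labels: deviations of the libraries of a clone correlated at 0.218 to 0.681, and each library matched best its own clone within its genotype. Benjamini-Hochberg adjusted p-values covered all genes tested, with a threshold of 0.1. Clones were single-cell cultures, and p-values measure the spread between clones. Alternatives were other pseudocounts, filters, scalings, library weights, DESeq2 1.42.0 and edgeR 4.0.16 on recovered reads, and leaving out each clone. Positions and lengths came from GENCODE M21, promoters from RefSeq (GRCm38.p6). No exon of another gene overlaps the 10 genes. *Siglecf* and *Adgre1* were listed under the older symbols *Siglec5* and *Emr1*.

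The 10 genes and all lists were chosen with earlier results of these data known. Named were the 10 genes, in each wider list the called genes and the one with the most mRNA per kb, and, of each marker list, up to 3 genes above 10 normalized counts and the called ones. *Cma1*, *Gzmb*, *Tpsb2*, *Lyn*, *Syk*, *Rpl10* and the markers at or near 0 were named outside this rule, after their values were seen. Some list genes that entered the counts are not reported here. The fits were tested on simulated counts.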

Additional observations from a re-analysis of the deposited data

How the results depend on the processing

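The calls of the 10 genes rest on few clones and few reads. The mRNA count of 2 called genes became 1 without a filter on low values and 1 with chromosome medians removed, both times through the loss of *Gata2*, and it ranged from 0 to 2 when 1 clone was left out. The footprint count stayed at 1 in every alternative run. In the TE fit without the pairing by clone (no replicate block), 0 of the 6 genes were called, as in the paired fit, and over all genes 3 were called in place of 2. With library weights, TE calls over all 9043 genes rose to 416 higher and 380 lower, and 0 of the 6 genes were called. For the wider lists, library weights raised the calls from 17 to 36 for mRNA and from 16 to 27 for footprints, and leaving out 1 clone gave 9 to 20 and 7 to 20. Calls over all tested genes moved too. For mRNA, library weights gave 1454 higher and 1505 lower, against 344 and 443 in the main fit. For footprints they gave 882 and 917, against 300 and 443. Leaving out 1 clone gave 130 to 491 higher and 182 to 622 lower for mRNA, and 65 to 506 and 164 to 642 for footprints. The cause of these shifts was not tested. The low mRNA depth of WT clone 28 limits *Cpa3* and its TE.

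Some differences that did not pass also changed sign. With chromosome medians removed, the log2 fold change of *Fcer1g* was -0.059 for mRNA and -0.070 for footprints, and with library weights that of *Mitf* footprints was 0.013 and that of *Fcer1g* TE 4.55e-05. Leaving out 1 clone gave -0.44 to 0.17 for *Gata1* mRNA, -0.65 to 0.93 for *Ms4a2* mRNA, -0.029 to 0.34 for *Fcer1g* mRNA and -0.46 to 0.022 for *Mitf* mRNA. For footprints it gave -0.062 to 0.25 for *Fcer1g* and -0.34 to 0.13 for *Mitf*, and for TE -0.21 to 0.018 for *Gata1* and -0.15 to 0.40 for *Mitf*.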
